A study of Arabidopsis thaliana with 12 samples.

Results

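The genotype by dehydration interaction is a difference of differences. For each probe set on the array it takes the dehydration response of the mutant siz1-3 (dehydrated minus control, log2) and subtracts the response of the wild type Col-0. A value above 0 means that the response was more positive in siz1-3, either because a transcript rose further or because it fell less, and a value below 0 means the opposite. All 12 of the 12 arrays of the series enter it. They are ATH1 GeneChips, which carry short probes for transcripts of Arabidopsis thaliana, and they fall into 4 groups of 3. The groups are Col-0 without stress, Col-0 after 2 h of dehydration, siz1-3 without stress and siz1-3 after 2 h of dehydration. The plants were 3 weeks old, and the label of Col-0 control replicate 1 gives 21 days. No tissue is named in the labels. They also do not say that the replicates of a group came from separate plants, so the p-values reflect the spread among these arrays alone, which may be technical. siz1-3 is a single insertion allele in the Col-0 background, with no other allele and no complemented line among the samples.

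SIZ1 encodes a SUMO E3 ligase. SUMO is a small protein that is attached to other proteins, many of them transcription factors and chromatin proteins, by an activating enzyme, a conjugating enzyme and a ligase, and SUMO conjugates accumulate when plants meet heat, cold or drought. Mutants of SIZ1 are dwarfed, hold more salicylic acid than the wild type and express defence genes without a pathogen, and SIZ1 is known to act on the cold pathway through the transcription factor ICE1. A response can differ because the genotypes start apart and draw together, or because they start alike and part. Whether a different response lay at the starting level or at the dehydrated level is the question that runs through the comparisons.

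The deposited signals were positive, linear values that share a trimmed mean. The median signal of an array ran from 84.3 to 86.6 in Col-0 controls, from 70.9 to 72.0 in dehydrated Col-0, from 86.9 to 87.7 in siz1-3 controls and from 65.1 to 65.6 in dehydrated siz1-3, so the array medians themselves fell further in the mutant. Arrays of a group correlated at 0.980 to 0.991 and arrays of different groups at 0.857 to 0.959 over probe sets on the log2 scale. Actin control probe sets, whose 3' over 5' ratio is a sign of RNA integrity, gave ratios from 8.29 to 20.2 over the arrays, whereas those of GAPDH gave 1.08 to 1.74, and the part of RNA integrity in the results was not tested. Below, the error after a mean signal is the SD over 3 arrays, and the error after a log2 value is its standard error in the limma fit. Adjusted p-values are limma's with Benjamini-Hochberg adjustment over all 22746 probe sets tested, and a probe set is called at an adjusted p under 0.05.

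SIZ1 itself is represented by a bright and a dim probe set. The bright one read 450.5, 428 and 286 in Col-0 controls and 392, 465 and 359.8 in dehydrated Col-0. The mutant read 160.1, 172 and 177 when unstressed and 81.5, 101 and 101 when dehydrated. All siz1-3 arrays lay below all Col-0 arrays in both conditions, with genotype differences of -1.10 ± 0.17 under control conditions and -1.93 ± 0.17 after dehydration on the log2 scale. Its interaction was -0.83 ± 0.24 (adjusted p = 0.0478). SIZ1 no longer passed without any 1 array other than Col-0 dehydration replicate 3 and Col-0 control replicates 1 and 2 (adjusted p 0.0713 to 0.108), nor with a pseudocount of 4, with a floor of 32, after quantile normalization and with array medians subtracted (0.0513 to 0.152). The dim SIZ1 probe set had means of 17.3 ± 8.41 and 16 ± 16.2 in Col-0 and 87.6 ± 23.3 and 78.7 ± 16.5 in siz1-3, higher in the mutant, and an interaction of 0.03 ± 0.44 (adjusted p = 0.981). The position of the insertion relative to these probe sets is not stated in the labels. SAE1A, a subunit of the SUMO-activating enzyme and the other measured member of the SUMO list, had an interaction of -0.19 ± 0.16 (adjusted p = 0.54).

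The dehydration response differed between the genotypes at 2003 of 22746 probe sets (8.81%). The response was more positive in siz1-3 at 874 of them (3.84%) and more negative at 1129 (4.96%), and 959 differed by at least 2-fold (4.22%), 522 of them positive (2.29%) and 437 negative (1.92%). With a single array left out the count lay between 1270 and 1885. It was lowest without siz1-3 dehydration replicate 3 (1270, of which 670 negative) and without siz1-3 dehydration replicate 2 (1271, of which 677 negative), and without Col-0 control replicate 1 the negative calls numbered 751. The split by direction depended on how the arrays were scaled: 43.6% of the called probe sets had a positive interaction on the deposited scale, 52.2% once the arrays were quantile-normalized and 65.9% once array medians were subtracted. Those settings move the median interaction of all probe sets, which was -0.08 on the deposited scale, by 0.06 and 0.13, and log2 values are to be read relative to these shifts. In bulk samples, fewer cells of a type and less RNA per cell cannot be told apart. Of the called probe sets 1065 pair with exactly 1 gene in the annotation used, 34 pair with more than 1 and 904 have no entry there. Among the 13355 genes so named, 1057 were called (7.91%), 440 of them positive (3.29%) and 617 negative (4.62%), and only 174 of the called genes carry a symbol other than a locus code, which limits what can be said of function.

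The genotypes differed at 3955 probe sets under control conditions (17.4%; 8.9% higher and 8.49% lower in siz1-3) and at 7165 after dehydration (31.5%; 12.4% higher and 19.1% lower). Among the 2003 probe sets with a called interaction, 1117 had a called genotype difference after dehydration and none called under control conditions, while 333 had the reverse. In 241 the genotypes differed in the same direction in both conditions and were further apart after dehydration, and in 139 they were closer together. A further 125 changed sign, so that the mutant was above the wild type in one condition and below it in the other, and 48 had no called difference in either condition. Of the probe sets with a negative interaction 697 fell in the first of these classes, against 420 of those with a positive one. In the bar chart of these patterns, the class in which the dehydrated difference alone was called is the longest for both signs.

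**Figure D1:**
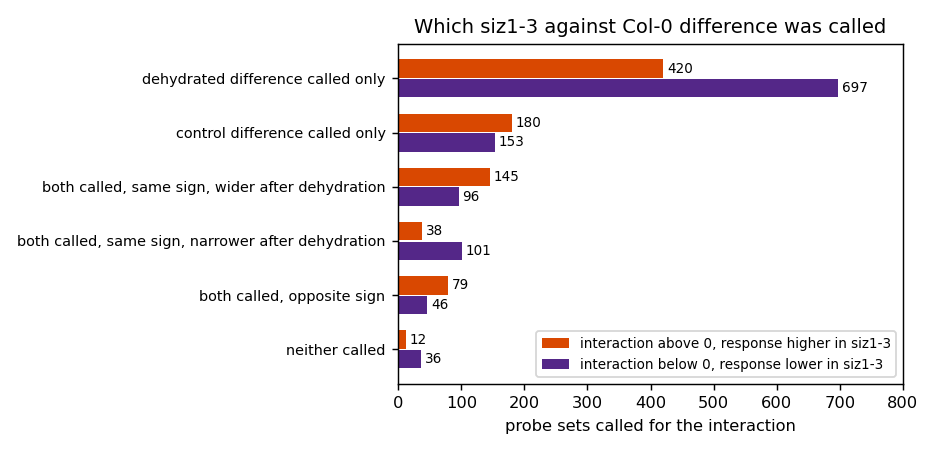
Number of probe sets with a called interaction (horizontal axis) by which siz1-3 against Col-0 difference was called, with positive interactions in orange and negative ones in purple. The class with a called difference only after dehydration holds 420 positive and 697 negative probe sets, and the class with a called difference only under control conditions 180 and 153.

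A call in one condition and not in the other does not show that the differences differ in size. Their order was therefore tested through the mean of both genotype differences. The estimates of that mean and of the interaction are uncorrelated in the fit. Both tests use the same variance of a probe set, so the calls are not independent of each other. That mean was called at 33.6% of all probe sets. Where it was called with the same sign as the interaction, the genotype difference was larger after dehydration, and where it had the opposite sign the difference was larger under control conditions. By this test 1059 of the 2003 probe sets (52.9%) differed more between genotypes at the dehydrated level, with a median size of the genotype difference of 0.20 under control conditions and 1.20 after dehydration. Another 369 (18.4%) differed more at the starting level, with medians of 1.41 and 0.32, and for 575 (28.7%) the order was not settled. Without siz1-3 dehydration replicate 2 these counts were 655, 236 and 380, and without siz1-3 dehydration replicate 3 they were 679, 236 and 355. Among the ordered probe sets 74.2% belonged to the dehydrated level, and the share was 70.4% to 76.9% over 8 alternative settings and 72.1% to 76.6% with an array left out. Genotype differences were wider after dehydration over the array as a whole: the dehydrated difference was the larger in size at 59.6% of all probe sets and at 71.6% of the called ones. The split was alike for both signs, with 448 dehydrated, 173 starting and 253 unsettled among positive interactions and 611, 196 and 322 among negative ones.

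**Figure D2:**
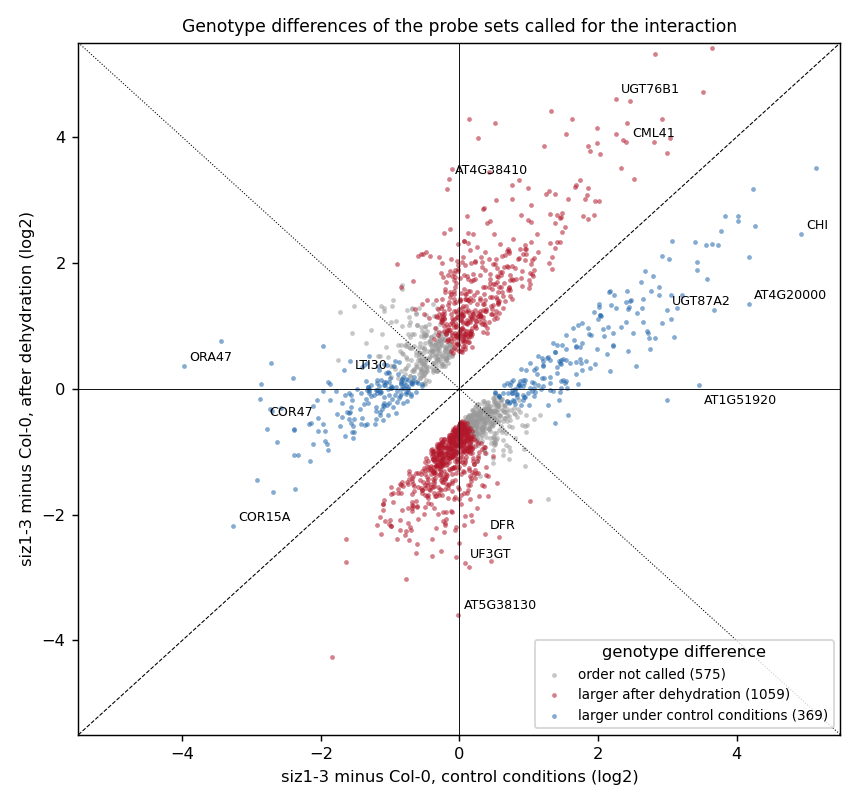
Genotype difference (siz1-3 minus Col-0, log2) under control conditions (horizontal axis) and after dehydration (vertical axis) for the 2003 probe sets with a called interaction. The dashed diagonal marks equal differences (interaction of 0) and the dotted diagonal differences of equal size and opposite sign; red points (1059) lie mainly along the vertical axis, blue points (369) along the horizontal axis and on the near side of the dashed diagonal, and grey points (575) near the dotted diagonal.

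The scatter of genotype differences shows these classes as separate arms. The same test with the mean of both responses, called at 51.5% of all probe sets, asks which genotype responded more. The response was larger in siz1-3 at 1182 of the 2003 probe sets (59.0%), larger in Col-0 at 510 (25.5%) and unsettled at 311 (15.5%). Without siz1-3 dehydration replicate 2 these counts were 719, 353 and 199, and without siz1-3 dehydration replicate 3 they were 730, 355 and 185. By size alone, without a test of the order, the response was larger in siz1-3 at 60.2% of all probe sets and at 67.1% of the called ones. Dehydration changed 8429 probe sets in Col-0 (37.1%) and 10707 in siz1-3 (47.1%). Among those with a called interaction, 459 rose in both genotypes and 473 fell in both, so that the interaction was a matter of degree. In 252 a rise was called in siz1-3 only and in 372 a fall, against 162 and 150 in Col-0 only. Responses in opposite directions were called at 131 probe sets, 79 of which rose in Col-0 and fell in siz1-3 and 52 the reverse. No change was called in either genotype at 4.

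On the log2 scale the 3 called members of the dehydration and abscisic acid list had stronger responses in siz1-3. In each case the genotypes differed more at the starting level on that scale. COR47 and LTI30 encode dehydrins, hydrophilic proteins that protect cells as water is lost, and COR15A a cold-regulated protein that shields chloroplast membranes. COR47 read 7017, 6317 and 5974 in Col-0 controls and 14643, 17169 and 19209.5 in dehydrated Col-0. The mutant read 1572, 1889 and 1816 when unstressed and 14425, 14682 and 15868 when dehydrated. The siz1-3 controls lay far below the Col-0 controls, whereas the dehydrated arrays of the genotypes overlapped. COR47 thus rose by 1.39 ± 0.13 in Col-0 and 3.08 ± 0.13 in siz1-3, an interaction of 1.69 ± 0.18 (adjusted p = 0.000228). The genotype difference of COR47 was -1.86 ± 0.13 before and -0.17 ± 0.13 after dehydration (adjusted p = 0.354 for the latter). Its dehydrated signals stood close to the brightest probe set of their arrays, which ran from 16646 to 21054 over the arrays, and the part of that upper limit in the narrowing was not tested.

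LTI30 behaved alike well below that limit. Its signals were 824, 860.2 and 1002 in Col-0 controls and 3921, 3993 and 4329 in dehydrated Col-0. In the mutant they were 388, 321 and 348 when unstressed and 3548, 4292 and 4110.1 when dehydrated. Again the control arrays were apart and the dehydrated arrays overlapped, with differences of -1.31 ± 0.12 and -0.04 ± 0.12 and an interaction of 1.27 ± 0.17 (adjusted p = 0.001). COR15A read 8978, 8428 and 7707 in Col-0 controls and 11548, 12554 and 13967 in dehydrated Col-0. The mutant read 1030.2, 641 and 925 when unstressed and 2572, 2828 and 2927 when dehydrated. Here the mutant lay below the wild type in both conditions, and the gap narrowed from -3.27 ± 0.16 to -2.18 ± 0.16 without closing, an interaction of 1.09 ± 0.23 (adjusted p = 0.012). On the linear scale the mean gain of COR15A was larger in Col-0 and the gap widened. Its stronger response in siz1-3 and the narrowing thus hold as ratios only. COR15B, the neighbouring gene of the same family, also started low in siz1-3 (1496 against 5972) and had an interaction of -0.28 ± 0.28 (adjusted p = 0.617), so its gap after dehydration was -2.26 ± 0.20.

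Of the 6 measured members of that list, out of 39 listed, 3 had a positive call, against 3.29% of all named genes. The other 3 did not pass, and the median interaction of the list was 0.40 against -0.08 over all probe sets. The late embryogenesis abundant genes LEA4-5 and LEA18, whose products also protect drying cells, had interactions of -0.73 ± 0.42 (adjusted p = 0.331) and -0.36 ± 0.44 (adjusted p = 0.684). With a pseudocount of 64 LEA4-5 passed, with a negative interaction (-0.90, adjusted p = 0.0182). LEA4-5 reached 1001 ± 93.9 in dehydrated Col-0 and 400.1 ± 19.4 in dehydrated siz1-3 from means of 52.4 and 30.8. AT2G46140, annotated as LEA27 and chosen after its values were seen, had the opposite origin to COR47. It read 106, 83.8 and 106 in Col-0 controls, 156, 138 and 124 in dehydrated Col-0, 349, 289 and 412 in siz1-3 controls and 1341, 1425 and 1469 in dehydrated siz1-3. No groups overlapped, and the mutant's lead widened from 1.66 ± 0.14 to 3.20 ± 0.14 (interaction 1.54 ± 0.20, adjusted p = 0.000736).

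Further genes of the starting-level class with positive interactions, named by size, carry locus codes only. AT1G73480 stood at 591 ± 53.6 in Col-0 and 187 ± 7.59 in siz1-3 controls and reached 2595 ± 85.7 and 3539 ± 235, an interaction of 2.02 ± 0.15. AT1G78070 went from 406 and 98.3 to 1727 and 1846 (interaction 2.01 ± 0.31). AT1G51090 differed from these: it was at 814 ± 51.2 and 741 ± 104 in Col-0, where its response was -0.14 ± 0.13 (adjusted p = 0.438), and rose from 105 ± 4.78 to 468 ± 39.1 in siz1-3, staying below the wild type. BIM1, a bHLH partner of the brassinosteroid factor BES1, rose from 311 to 593 in Col-0 and from 147 to 700.5 in siz1-3 (interaction 1.29 ± 0.26, adjusted p = 0.00999). Its placement at the starting level held under 7 of 20 alternatives.

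**Figure D3:**
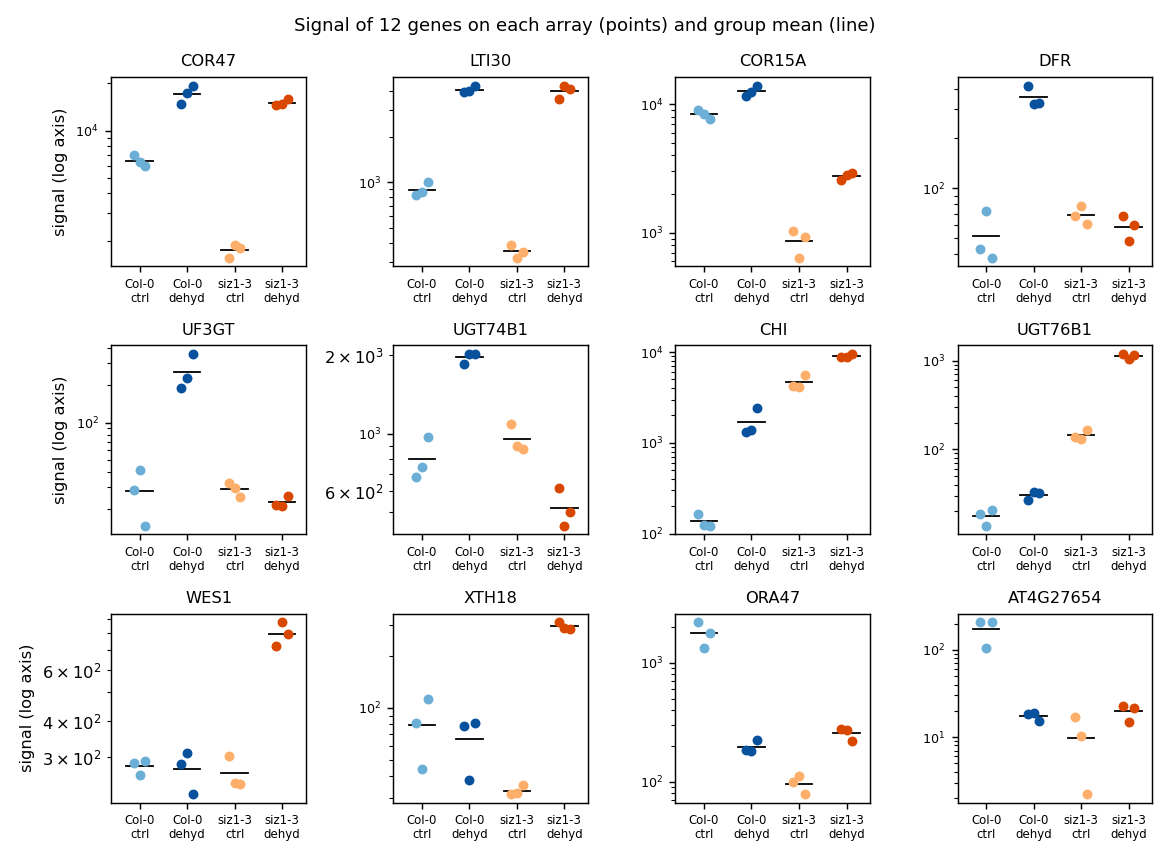
Signal of 12 genes (vertical log axes, one scale per panel) on each array (points), with the group mean as a line, for Col-0 and siz1-3 under control conditions (ctrl) and after dehydration (dehyd). COR47 and LTI30 start lower in siz1-3 and meet after dehydration, DFR and UF3GT start alike and rise in Col-0 only, and ORA47 is highest in the Col-0 controls.

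Flavonoid genes showed the reverse arrangement: starting levels without a called difference, a rise in the wild type and no called rise in the mutant. Flavonoids and the anthocyanin pigments among them are made from phenylalanine by a chain of enzymes and then decorated with sugars. DFR encodes dihydroflavonol 4-reductase, which commits the pathway to anthocyanins. It read 43.1, 72.7 and 38.2 in Col-0 controls and 416, 321 and 328 in dehydrated Col-0. The mutant read 67.9, 77.9 and 60.9 when unstressed and 67.9, 47.7 and 59.9 when dehydrated. The dehydrated Col-0 arrays lay above all the others, and the other groups overlapped. DFR had a response of 2.49 ± 0.19 in Col-0 and -0.19 ± 0.19 (adjusted p = 0.451) in siz1-3, and an interaction of -2.68 ± 0.27 (adjusted p = 0.000148).

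UF3GT, a flavonoid glycosyltransferase gene, followed the same course. Its signals were 28.4, 41.4 and 14.7 in Col-0 controls and 189, 227 and 357 in dehydrated Col-0. In the mutant they were 32.8, 29.6 and 25 when unstressed and 21.5, 21.3 and 25.5 when dehydrated. Only the dehydrated Col-0 arrays stood apart, at genotype differences of 0.07 ± 0.23 under control conditions and -2.77 ± 0.23 after dehydration, for an interaction of -2.85 ± 0.33 (adjusted p = 0.000371). UGT78D1 and UGT78D2, which attach sugars to flavonols, went further and fell in the mutant. UGT78D1 rose from 184 ± 6.09 to 399.9 ± 76.1 in Col-0 and fell from 202 ± 18.4 to 128 ± 17.8 in siz1-3 (interaction -1.64 ± 0.20, adjusted p = 0.000506). UGT78D2 rose from 141 ± 15.6 to 251 ± 8.92 and fell from 158 ± 7.21 to 77.8 ± 18.9 (interaction -1.68 ± 0.21, adjusted p = 0.00048). The 3 arrays of each of these groups after dehydration lay beyond the controls of their genotype. The list of flavonoid and anthocyanin genes has 25 entries, of which 4 were measured. All 4 had negative calls that belonged to the dehydrated level, where 4.62% of all named genes had a negative call. The median interaction of the list was -2.18. UF3GT had an interaction of -1.88 with a pseudocount of 64.

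UGT74B1 and CYP84A4 also rose in Col-0 and fell in siz1-3. UGT74B1 adds the glucose in the synthesis of glucosinolates, the sulphur-containing defence compounds of the cabbage family. It read 678, 742 and 967 in Col-0 controls and 1850.2, 2024 and 2023 in dehydrated Col-0. The mutant read 1086, 892 and 870.4 when unstressed and 617, 442 and 499 when dehydrated. The control groups overlapped, and after dehydration the Col-0 arrays were the highest and the siz1-3 arrays the lowest of all. UGT74B1 rose by 1.30 ± 0.16 in Col-0 and fell with a log2 change of -0.86 ± 0.16 in siz1-3, an interaction of -2.16 ± 0.23 (adjusted p = 0.000196). BCAT4, an aminotransferase gene of the same pathway, had an interaction of -0.54 ± 0.28 (adjusted p = 0.274). CYP84A4, a cytochrome P450 gene of phenylpropanoid metabolism, rose from 47.4 ± 4.23 to 152 ± 0.873 in Col-0 and fell from 52.1 ± 5.77 to 37.4 ± 6.63 in siz1-3 (interaction -1.76 ± 0.17, adjusted p = 0.00014). 4CL8, annotated by its symbol as a 4-coumarate ligase type gene, had an interaction of -1.48 ± 0.35 (adjusted p = 0.0236). 4CL8 no longer passed without any 1 array other than siz1-3 dehydration replicate 1, siz1-3 control replicate 1, Col-0 dehydration replicates 2 and 3 and Col-0 control replicate 2 (adjusted p 0.0515 to 0.0601), nor with a pseudocount of 4 (0.114). CYP84A4 had an interaction of -1.15 with a pseudocount of 64.

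Within the UGT family as a whole, 13 of 51 measured genes were called (25.5%, against 7.91% of all named genes), 4 positive and 9 negative, and the family's median interaction was -0.02. The family was chosen for description after its counts were seen. UGT76B1, which glucosylates isoleucic and salicylic acid and so tunes defence, opposed the flavonoid genes. It read 18.5, 13.7 and 20.6 in Col-0 controls and 27.1, 33.3 and 32.3 in dehydrated Col-0. The mutant read 139, 129 and 166 when unstressed and 1189, 1036 and 1158 when dehydrated. No groups overlapped, and each step from Col-0 control to dehydrated siz1-3 was upward. UGT76B1 was 4.78-fold higher in siz1-3 than in Col-0 under control conditions and 24.4-fold higher after dehydration on the pseudocount scale, an interaction of 2.35 ± 0.18 (adjusted p = 3.05e-05). UGT73C7 and its neighbour on the chromosome UGT73D1, the latter chosen after its values were seen, had interactions of 1.80 ± 0.30 (adjusted p = 0.00331) and 1.71 ± 0.31 (adjusted p = 0.00547). UGT73D1 no longer passed with a pseudocount of 4 (0.146). UGT73C7 no longer passed with a pseudocount of 4 (0.0783). UGT73C7 started dim in both genotypes (8.37 and 7.36), whereas UGT73D1 was already at 67.9 in siz1-3 controls against 5.09 in Col-0. UGT73C7 had an interaction of 1.14 with a pseudocount of 64.

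UGT87A2, known for a part in flowering time, had a negative interaction that lay at the starting level. It read 157, 162 and 153 in Col-0 controls and 1889, 1820.1 and 1631 in dehydrated Col-0. The mutant read 1350.4, 1301 and 1443 when unstressed and 3772, 4889 and 4155 when dehydrated. No groups overlapped. The mutant began 7.96-fold above Col-0 and ended 2.38-fold above it, an interaction of -1.74 ± 0.17 (adjusted p = 0.00014). CHI, here a putative chitinase and not chalcone isomerase, was the strongest symbol-bearing case of this kind. It read 163, 125 and 122 in Col-0 controls and 1301, 1371 and 2412 in dehydrated Col-0. The mutant read 4212, 4077 and 5646 when unstressed and 8719, 8752 and 9534 when dehydrated. The siz1-3 controls were already above the dehydrated Col-0 arrays. CHI rose by 3.44 ± 0.22 in Col-0 and 0.97 ± 0.22 in siz1-3, an interaction of -2.47 ± 0.31 (adjusted p = 0.000531). On the linear scale the mean gains of CHI and UGT87A2 were larger in siz1-3, so the smaller responses of the mutant hold as ratios only. AT2G43580, the next gene on the chromosome, went the opposite way, with an interaction of 3.35 ± 0.23 (adjusted p = 1.54e-05).

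Both called genes of the salicylic acid and defence list were higher in siz1-3 in both conditions and fell less there on dehydration on the log2 scale. On the linear scale the mean loss of SAG101 was about the same in both genotypes, and that of WRKY53 was larger in siz1-3. SAG101 encodes a lipase-like partner of the immune regulator EDS1. It read 101, 76.8 and 93.4 in Col-0 controls and 25.6, 26.8 and 30.5 in dehydrated Col-0. The mutant read 198, 206 and 202 when unstressed and 136, 154 and 129 when dehydrated. All groups were apart, and the mutant's lead grew from 1.04 ± 0.12 to 1.83 ± 0.12 (interaction 0.79 ± 0.17, adjusted p = 0.0122). WRKY53, a transcription factor gene of defence and senescence, read 634, 404 and 548 in Col-0 controls and 102, 89.9 and 156 in dehydrated Col-0. The mutant read 1677, 1979 and 1861 when unstressed and 850.3, 882 and 814 when dehydrated. No groups overlapped. WRKY53 fell in both genotypes, by a log2 change of -2.05 ± 0.19 in Col-0 and -1.10 ± 0.19 in siz1-3, with an interaction of 0.95 ± 0.27 (adjusted p = 0.0462). WRKY53 no longer passed without any 1 array other than Col-0 dehydration replicate 3 and Col-0 control replicate 2 (adjusted p 0.0641 to 0.103), nor with a pseudocount of 64, with a pseudocount of 4, with a floor of 32 and after quantile normalization (0.0573 to 0.132). GRX480, a salicylic acid-induced glutaredoxin gene, rose in both genotypes with an interaction of 0.62 ± 0.22 (adjusted p = 0.0995), which passed under 3 of 20 alternatives. The list has 37 entries, 3 of them measured and 2 called, both positive, against 3.29% of all named genes with a positive call. Its median interaction was 0.79. Of 7 measured WRKY genes 2 had positive calls and 1 a negative one, against 3.29% and 4.62% of all named genes, with a median of -0.11. SAG101 had an interaction of 0.36 with a pseudocount of 64.

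Calmodulin-like proteins bind calcium and relay stress signals, and 3 of 8 measured CML genes had positive calls and none a negative one (median 0.70). Over all named genes 3.29% were positive, and the family was chosen after its counts were seen. CML41 read 63.1, 76.8 and 93.6 in Col-0 controls and 61.8, 68.3 and 84.3 in dehydrated Col-0. The mutant read 475, 482 and 479 when unstressed and 1300.0, 1299 and 1296 when dehydrated. All siz1-3 arrays were above all Col-0 arrays, and the dehydrated ones were the highest. Dehydration left CML41 without a called change in Col-0 (response -0.10 ± 0.13, adjusted p = 0.64) and raised it in siz1-3 by 1.41 ± 0.13, an interaction of 1.51 ± 0.19 (adjusted p = 0.000587) on top of a starting difference of 2.41 ± 0.13. CML38 and CML23 rose in siz1-3 from 131 ± 49 to 729 ± 85.7 and from 38.1 ± 2.95 to 149 ± 43.7, with interactions of 1.74 ± 0.37 (adjusted p = 0.0125) and 1.61 ± 0.38 (adjusted p = 0.0219). CML23 no longer passed without any 1 of siz1-3 dehydration replicates 2 and 3 (adjusted p 0.058 to 0.0585). CML37 was 5.41-fold higher in siz1-3 controls and had an interaction of 1.105 ± 0.34 (adjusted p = 0.0674), which passed under 6 of 20 alternatives.

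AT1G51920, AT2G44380, AT4G20000 and AT1G52770 had signal in unstressed siz1-3 and fell there on dehydration. For the first 3 of them the Col-0 signals were dim, so the size of the log2 interaction depends on the pseudocount. AT1G51920 read 1.93, 6.86 and 0.653 in Col-0 controls and 4.72, 8.47 and 13.1 in dehydrated Col-0. The mutant read 193, 176 and 209 when unstressed and 9.98, 5.79 and 13.1 when dehydrated. Only the siz1-3 controls stood out, and the other 3 groups overlapped at signals below the floor of 32 used as an alternative. Its interaction was -3.40 ± 0.23 (adjusted p = 1.54e-05). AT2G44380 had group means before and after dehydration of 5.49 ± 7.52 and 11 ± 5.15 in Col-0 and 151 ± 19.99 and 7.84 ± 4.71 in siz1-3 (interaction -3.18 ± 0.33, adjusted p = 0.000183), and AT4G20000 of 2.81 ± 0.236 and 5.005 ± 5.28 in Col-0 and 325 ± 36.6 and 36.8 ± 10.6 in siz1-3 (interaction -2.83 ± 0.26, adjusted p = 0.000111). AT1G52770 shared the pattern at 46.8 ± 12.2 and 75.1 ± 5.87 in Col-0 and 263 ± 12 and 94.7 ± 9.63 in siz1-3 (interaction -1.89 ± 0.21). AT2G44380 and AT1G51920 had interactions of -1.69 and -1.92 with a pseudocount of 64.

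AT5G64120, which encodes the wall peroxidase PRX71, read 76.8, 108 and 135 in Col-0 controls and 212, 203 and 309 in dehydrated Col-0. The mutant read 757, 628 and 693 when unstressed and 319.6, 306 and 308 when dehydrated. PRX71 rose in Col-0 and fell in siz1-3, so that the dehydrated arrays overlapped, and the interaction was -2.19 ± 0.26 (adjusted p = 0.000446) with a starting difference of 2.56 ± 0.19. YLS5, a DJ-1 family gene first known from yellowing leaves, rose from 294 ± 24.6 to 887 ± 86.5 in Col-0 and stood at 1438 ± 211 and 1428 ± 73.6 in siz1-3, where no change was called (adjusted p = 0.993). The interaction of YLS5 was -1.54 ± 0.18 (adjusted p = 0.000391).

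The largest interaction of any named gene was that of ORA47, an AP2/ERF transcription factor gene that activates jasmonate synthesis. ORA47 read 2196, 1323 and 1797 in Col-0 controls and 185, 182 and 223 in dehydrated Col-0. The mutant read 99.3, 111 and 78.8 when unstressed and 276, 272 and 221 when dehydrated. The Col-0 controls stood above every other array, and the dehydrated arrays of the genotypes overlapped. ORA47 fell with a log2 change of -3.05 ± 0.18 in Col-0 and rose by 1.28 ± 0.18 in siz1-3, which gave an interaction of 4.33 ± 0.26 (adjusted p = 9.51e-06). Its genotype difference was -3.97 ± 0.18 under control conditions and 0.35 ± 0.18 (adjusted p = 0.171) after dehydration, which places it at the starting level. The Col-0 controls also showed the widest spread of the groups, 1772 ± 437. The other 5 measured members of the jasmonate and wounding list did not pass, where 7.91% of all named genes were called. Among them PDF1.2b, PDF1.2 and THI2.1, genes for small antimicrobial proteins, had adjusted p-values of 0.248, 0.941 and 0.922. PDF1.2b passed without Col-0 dehydration replicate 3 (0.0301), and its probe set is of a kind that can bind related transcripts.

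The neighbouring loci AT4G27652 and AT4G27654 were also highest in the Col-0 controls. AT4G27654 read 208, 106 and 208 in Col-0 controls and 18.2, 19.1 and 15.5 in dehydrated Col-0. The mutant read 17.1, 10.3 and 2.22 when unstressed and 22.5, 15 and 21.4 when dehydrated. Signals above the floor of 32 were thus seen in the Col-0 controls alone, and in these controls replicate 2 was the lowest, as it was for ORA47. The interaction of AT4G27654 was 2.95 ± 0.35 (adjusted p = 0.00039) and that of AT4G27652 2.95 ± 0.35 (adjusted p = 0.000428). AT4G27652 fell from 352 ± 157 to 72.5 ± 9.87 in Col-0 and rose from 89.2 ± 17.7 to 191 ± 16.2 in siz1-3, and its genotype differences could not be ordered. AT3G53250 had group means before and after dehydration of 110.3 ± 22.6 and 1.15 ± 0.473 in Col-0 and 8.02 ± 4.48 and 3.40 ± 2.46 in siz1-3 (interaction 2.57 ± 0.24, adjusted p = 0.000115). EXLA1, an expansin-like gene chosen after its values were seen, fell from 396 ± 133 to 104 ± 16.4 in Col-0 and stood at 72.4 ± 7.68 and 65.1 ± 6.45 in siz1-3 (interaction 1.62 ± 0.29, adjusted p = 0.00473). AT4G27654 and AT3G53250 had interactions of 1.69 and 1.32 with a pseudocount of 64.

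PUB22 encodes a U-box ubiquitin ligase that damps immune and drought responses. It read 58.5, 42 and 69.3 in Col-0 controls and 12.8, 15.1 and 10.7 in dehydrated Col-0. The mutant read 26.5, 32.7 and 26.3 when unstressed and 59.3, 46.6 and 54.5 when dehydrated. The mutant lay below the wild type under control conditions and above it after dehydration, with no overlap in either condition. PUB22 fell in Col-0 (-1.32 ± 0.15) and rose in siz1-3 (0.64 ± 0.15), an interaction of 1.96 ± 0.21 (adjusted p = 0.000215) whose genotype differences of -0.69 ± 0.15 and 1.27 ± 0.15 could not be ordered. Of the 8 measured members of the ubiquitin list PUB22 alone was called, where 7.91% of all named genes were. PUB19, PUB23 and UBC32, the next by size, had interactions of 0.84 ± 0.39 (adjusted p = 0.22), 0.74 ± 0.29 (adjusted p = 0.144) and -0.36 ± 0.14 (adjusted p = 0.132). PUB19 and PUB23 each passed under 1 of 20 alternatives and UBC32 under 3. LUL1, a further ubiquitin ligase gene, rose from 248 ± 22 to 476 ± 33.9 in Col-0 and fell from 246 ± 47.9 to 150.5 ± 12.8 in siz1-3 (interaction -1.54 ± 0.20, adjusted p = 0.000726). NANA, a chloroplast protease gene, fell from 359 ± 34.6 to 119 ± 26.2 in Col-0 and rose from 225 ± 26.4 to 304 ± 16 in siz1-3 (interaction 1.90 ± 0.21, adjusted p = 0.000299), and its placement at the dehydrated level held under 11 of 20 alternatives. PUB22 had an interaction of 0.99 with a pseudocount of 64.

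WES1 and IAGLU, whose products inactivate auxin, had their highest signals in dehydrated siz1-3. WES1 (GH3.5) encodes an enzyme that joins auxin and salicylic acid to amino acids. It read 286, 259 and 290.4 in Col-0 controls and 284, 310.2 and 223 in dehydrated Col-0. The mutant read 303, 244 and 242 when unstressed and 725, 874 and 796 when dehydrated. The dehydrated siz1-3 arrays were the highest by a wide margin and the other groups overlapped. The response of WES1 was -0.04 ± 0.14 (adjusted p = 0.862) in Col-0 and 1.55 ± 0.14 in siz1-3, an interaction of 1.59 ± 0.20 (adjusted p = 0.000572). IAGLU, which attaches glucose to auxin and was chosen after its values were seen, read 55.6, 49.9 and 53.2 in Col-0 controls and 69.9, 68.3 and 102 in dehydrated Col-0. The mutant read 38.1, 58.2 and 53.6 when unstressed and 178, 245 and 205 when dehydrated. Its dehydrated siz1-3 arrays were also the highest, and its interaction was 1.31 ± 0.24 (adjusted p = 0.00522).

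IAA30, an Aux/IAA repressor gene, rose from 33.5 ± 6.11 to 88.1 ± 12.6 in Col-0 and from 27.4 ± 5.34 to 147 ± 6.72 in siz1-3 (interaction 0.84 ± 0.19, adjusted p = 0.0191). IAA30 no longer passed without siz1-3 dehydration replicate 3 (adjusted p 0.0509). GH3.3, a close relative of WES1, rose in both genotypes, to 482 ± 131 and 686 ± 54.6, with an interaction of 0.45 ± 0.24 (adjusted p = 0.281). GH3.1, another relative, did not pass and had a genotype difference of -0.27 after dehydration. IAA20 was dim in all groups, with means of 12.3, 7.46, 5.34 and 5.67. In the auxin list 2 of 6 measured members, out of 36 listed, had positive calls, against 3.29% of all named genes. The other 4 did not pass, and the median interaction was 0.36. ARL, an ARGOS-like gene that promotes organ growth, rose in siz1-3 from 544 ± 30.9 to 1853 ± 129 and stood at 313 ± 31.7 and 343 ± 47.2 in Col-0 (interaction 1.61 ± 0.18, adjusted p = 0.000264).

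Genes that remodel the cell wall moved in both directions. Xyloglucan endotransglucosylase/hydrolases (XTH) cut and rejoin wall polymers, and expansins (EXPA, EXPB) loosen the bonds between them. XTH18 read 81.7, 44.2 and 113 in Col-0 controls and 77.8, 38.2 and 81.6 in dehydrated Col-0. The mutant read 31.6, 32.1 and 35.4 when unstressed and 313, 291 and 286 when dehydrated. The siz1-3 arrays were the lowest under control conditions and the highest after dehydration. XTH18 had a response of -0.20 ± 0.26 (adjusted p = 0.605) in Col-0 and rose by 2.67 ± 0.26 in siz1-3, an interaction of 2.87 ± 0.37 (adjusted p = 0.000641). The placement of XTH18 at the dehydrated level held under 8 of 20 alternatives, and its control difference of -0.89 ± 0.26 was also called. XTH19, its neighbour on the chromosome and named after its values were seen, had means of 46.2 ± 17.8 and 47.9 ± 17.2 in Col-0 and 9.71 ± 6.62 and 104 ± 19.98 in siz1-3 (interaction 2.20 ± 0.37, adjusted p = 0.00353). XTH19 no longer passed with a floor of 32 (0.0547). Probes of such close relatives may bind each other's transcripts, so their values may not be independent. XTH19 had an interaction of 1.16 with a pseudocount of 64.

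XTH16 fell in both genotypes and further in siz1-3, to 111 ± 23 in Col-0 and 42.9 ± 8.51 in siz1-3 (interaction -0.94 ± 0.24, adjusted p = 0.0293). XTH16 no longer passed without any 1 of siz1-3 dehydration replicates 1 and 3, siz1-3 control replicates 1 and 3, Col-0 dehydration replicate 1 and Col-0 control replicate 1 (adjusted p 0.052 to 0.0724), nor after quantile normalization and with array medians subtracted (0.0578 to 0.0749). Expansin EXPA4 read 418, 647 and 516 in Col-0 controls and 501, 525 and 574 in dehydrated Col-0. The mutant read 494, 504 and 586 when unstressed and 236, 191 and 175 when dehydrated. Only the dehydrated siz1-3 arrays were low, and the interaction was -1.37 ± 0.23 (adjusted p = 0.0032). EXPA16 read 87.9, 69.9 and 84.5 in Col-0 controls and 1139.5, 1163 and 1309.9 in dehydrated Col-0. The mutant read 56.7, 51.4 and 43.7 when unstressed and 468, 361 and 338 when dehydrated. No groups overlapped. EXPA16 rose in both genotypes and less in siz1-3, an interaction of -1.06 ± 0.20 (adjusted p = 0.00685). EXPA8, EXPA9 and XTH32, which did not pass, had interactions of 0.33 ± 0.41 (adjusted p = 0.692), -0.59 ± 0.19 (adjusted p = 0.0714) and -0.88 ± 0.28 (adjusted p = 0.0751). They passed under 2, 3 and 3 of 20 alternatives. For EXPB3 the value was -0.91 ± 0.23 (adjusted p = 0.0325). EXPB3 no longer passed without any 1 array other than siz1-3 control replicates 2 and 3, Col-0 dehydration replicate 1 and Col-0 control replicate 2 (adjusted p 0.0531 to 0.0807), nor after quantile normalization and with array medians subtracted (0.0582 to 0.0982). EXPB3 and XTH16 had interactions of -0.59 and -0.57 with a pseudocount of 64.

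Among 10 measured members of the wall list, out of 24 listed, 2 had positive and 3 negative calls and 5 did not pass. The remaining positive call was EXGT-A3, an XTH gene named here after its values were seen, with an interaction of 0.70 ± 0.16 (adjusted p = 0.0178) and genotype differences of -0.34 ± 0.11 under control conditions and 0.36 ± 0.11 after dehydration. Of 10 measured XTH genes 3 were positive and 1 negative. Of 10 measured EXPA genes 2 were negative. Over all named genes 3.29% were positive and 4.62% negative, both families were chosen after their counts were seen, and the families were not tested against each other. EXLA2 started lower in siz1-3 (27.9 ± 5.45 against 80.7 ± 10.1) and was at 67.2 ± 6.76 and 72 ± 19.7 after dehydration (interaction 1.08 ± 0.23, adjusted p = 0.0122). PMEPCRF, a pectin methylesterase gene, showed the mirror image: it was at 663 ± 52.5 in siz1-3 and 262 ± 52.3 in Col-0 controls and at 184 ± 27 and 173 ± 37.3 after dehydration (interaction -1.21 ± 0.25, adjusted p = 0.0111). Both of these were chosen after their values were seen. TBL26, of a family that acetylates wall polymers, rose in Col-0 from 81.5 ± 29.6 to 337 ± 81.6 and was at 78.4 ± 25.4 and 38.6 ± 2.25 in siz1-3 (interaction -2.62 ± 0.35, adjusted p = 0.000726). CSLA01, a mannan synthase-like gene, had an interaction of -1.85 ± 0.39 (adjusted p = 0.0119). CSLA01 no longer passed with a pseudocount of 4 (0.0916). SBT3.5, a subtilase gene, rose in siz1-3 from 128 ± 20.02 to 949.9 ± 25 and in Col-0 from 54.5 ± 6.82 to 141 ± 35.9 (interaction 1.62 ± 0.23, adjusted p = 0.00114). Of 8 measured SBT genes it was the 1 with a positive call, and 2 had negative calls, against 3.29% and 4.62% of all named genes. EXLA2 had an interaction of 0.61 with a pseudocount of 64.

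**Figure D4:**
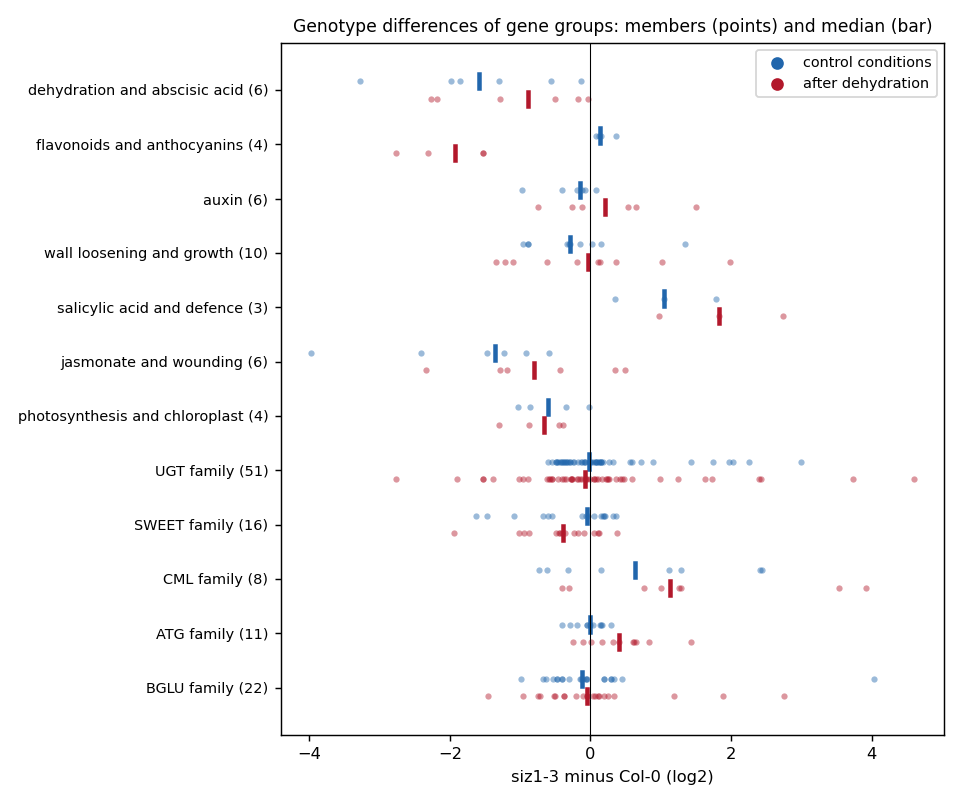
Genotype differences (siz1-3 minus Col-0, log2, horizontal axis) of the members of 12 gene lists and families, under control conditions (blue, upper row) and after dehydration (red, lower row), with the number of measured members in brackets and the median as a bar. The flavonoid genes lie near 0 under control conditions and below -1 after dehydration, and the dehydration and abscisic acid genes lie at or below 0 in both.

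The plot of gene groups sets the shift of the flavonoid genes beside groups whose members moved apart, such as the SWEET family. SWEET proteins let sugars cross membranes, and SWEET11 is known for loading sucrose into the phloem. SWEET11 read 2065, 2262 and 2133 in Col-0 controls and 1528, 1623 and 1765 in dehydrated Col-0. The mutant read 2575, 2208 and 2546 when unstressed and 902, 871 and 760.1 when dehydrated. SWEET11 fell in both genotypes and further in siz1-3, whose dehydrated arrays were the lowest (interaction -1.12 ± 0.16, adjusted p = 0.00132). SWEET17, a vacuolar fructose transporter gene, fell from 935 ± 139 to 729.6 ± 13.7 in Col-0 and from 575 ± 40.3 to 178 ± 11.5 in siz1-3 (interaction -1.27 ± 0.18, adjusted p = 0.00104). SWEET1 had means of 237 ± 31.8 and 304 ± 66.6 in Col-0 and 308 ± 27.7 and 139.9 ± 11.4 in siz1-3 (interaction -1.39 ± 0.22, adjusted p = 0.0022), and its placement at the dehydrated level held under 11 of 20 alternatives.

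SWEET4 was the exception. It read 159, 186 and 173 in Col-0 controls and 2026, 1535 and 1650.2 in dehydrated Col-0. The mutant read 49.5, 40.1 and 46.3 when unstressed and 1302, 1368 and 1343 when dehydrated. The mutant started lower, and after dehydration the log2 gap had narrowed from -1.62 ± 0.12 to -0.36 ± 0.12, a positive interaction of 1.26 ± 0.18 (adjusted p = 0.00107) of the COR47 kind. Unlike that of COR47, the mean gain of SWEET4 on the linear scale was larger in Col-0, so its narrowing holds as a ratio only. SAG29, another SWEET gene, was at or below 27.3 on average in every group and had an interaction of -0.06 ± 0.41 (adjusted p = 0.952). In all, 1 of 16 SWEET genes had a positive and 3 a negative call, against 3.29% and 4.62% of all named genes, in a family chosen after its counts were seen. These 5 genes are also the measured members of the list of proline and sugar genes, which has 27 entries. AT4G33150, the gene of the lysine-degrading enzyme LKR/SDH, was chosen after its values were seen. It rose from 169.7 ± 43.7 to 2028 ± 60.8 in Col-0 and from 76.6 ± 8.95 to 434 ± 27.9 in siz1-3 (interaction -1.20 ± 0.22, adjusted p = 0.00522). SWEET4 had an interaction of 0.76 with a pseudocount of 64.

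Autophagy, the delivery of cell contents to the vacuole for recycling, is represented by 11 measured ATG genes, of which 4 had positive calls and none a negative one (median 0.30). The share of positive calls among all named genes was 3.29%, and the family was chosen after its counts were seen. ATG8 proteins coat the autophagosome membrane. ATG8H read 145, 149.6 and 105 in Col-0 controls and 493, 529 and 401 in dehydrated Col-0. The mutant read 198, 157 and 144 when unstressed and 1161, 1469 and 1297 when dehydrated. ATG8H rose in both genotypes and reached the highest signals in dehydrated siz1-3 (interaction 1.15 ± 0.23, adjusted p = 0.0105). ATG8E read 464, 551 and 528 in Col-0 controls and 244, 313 and 258 in dehydrated Col-0. The mutant read 549, 522 and 429 when unstressed and 462, 550.2 and 473 when dehydrated. Here the dehydrated Col-0 arrays alone were low, and the interaction of 0.87 ± 0.19 (adjusted p = 0.0163) came from a fall in Col-0 without a called change in siz1-3 (response -0.01 ± 0.14, adjusted p = 0.961). ATG8B and ATG101 (AT5G66930) had interactions of 0.67 ± 0.17 (adjusted p = 0.0267) and 0.95 ± 0.23 (adjusted p = 0.026). ATG8B no longer passed without any 1 array other than siz1-3 dehydration replicate 1, siz1-3 control replicate 2, Col-0 dehydration replicates 1 and 3 and Col-0 control replicate 2 (adjusted p 0.053 to 0.0717). ATG101 no longer passed without any 1 array other than siz1-3 dehydration replicate 1, siz1-3 control replicate 2, Col-0 dehydration replicate 1 and Col-0 control replicate 1 (adjusted p 0.0527 to 0.0659).

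Of the 4 measured members of the photosynthesis list none was called by limma, a count too small to set apart from the 7.91% of all named genes, and 1 had an unadjusted p under 0.05. RCA, LHCB4.1, LHCB4.2 and PORB had adjusted p-values of 0.092, 0.9, 0.434 and 0.987. RCA passed under 4 of 20 alternatives (interaction -0.43 ± 0.15). Other chloroplast genes were chosen after their values were seen. NdhN, a subunit of the chloroplast NADH dehydrogenase-like complex, fell from 1217 ± 54.1 to 765 ± 66.3 in Col-0 and from 1125 ± 14.7 to 356 ± 35.4 in siz1-3 (interaction -0.96 ± 0.16, adjusted p = 0.00287). CRR42, an assembly factor of that complex, fell to 96.7 ± 7.93 and 30.1 ± 4.89 from 391 ± 14.9 and 321 ± 38.7 (interaction -1.02 ± 0.17, adjusted p = 0.00359). Not all genes of the complex moved this way. Of 5 measured NDH genes ndhF alone was called, with a positive interaction (0.69, adjusted p = 0.0237). Of 7 measured CRR genes CRR42 alone was called. Over all named genes 3.29% were positive and 4.62% negative. TAAC, an adenine nucleotide carrier of the thylakoid, rose from 241 ± 30.01 to 609 ± 12.4 in Col-0 and stood at 303 ± 16.3 and 327 ± 26 in siz1-3 (interaction -1.19 ± 0.16, adjusted p = 0.000977). CRR42 had an interaction of -0.53 with a pseudocount of 64.

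The cuticle list had 2 measured members, both called where 7.91% of all named genes were, and they moved in opposite directions. WSD1, a wax ester synthase gene, rose from 3.19 ± 1.91 to 123 ± 24 in Col-0 and from 11.3 ± 6.45 to 48.8 ± 11.9 in siz1-3 (interaction -1.58 ± 0.28, adjusted p = 0.00415). AT5G61590 (DEWAX), which encodes a repressor of wax genes, fell from 3100.2 ± 251 to 131 ± 12.5 in Col-0 and from 2691 ± 209.7 to 207 ± 31.9 in siz1-3 (interaction 0.80 ± 0.19, adjusted p = 0.0221). DEWAX no longer passed without any 1 of siz1-3 dehydration replicates 2 and 3 and Col-0 control replicate 1 (adjusted p 0.0544 to 0.0616). Beta-glucosidases release compounds stored as glucosides, and 3 of 22 BGLU genes had positive and 2 negative calls, against 3.29% and 4.62% of all named genes, in a family chosen after its counts were seen. BGLU27 rose in siz1-3 from 16.4 ± 11 to 97.5 ± 23.1 and was at 17.3 ± 8.14 and 14.8 ± 6.30 in Col-0 (interaction 1.95 ± 0.39, adjusted p = 0.00953). BGLU31 was dim in Col-0, at 5.38 ± 5.61 and 4.91 ± 6.48, and fell from 326 ± 35.6 to 121 ± 19 in siz1-3 (interaction -1.28 ± 0.31, adjusted p = 0.0253). BGLU31 no longer passed without any 1 of siz1-3 dehydration replicates 2 and 3, siz1-3 control replicate 3 and Col-0 control replicates 1 and 3 (adjusted p 0.0587 to 0.0648), nor with a pseudocount of 4 (0.323). BGLU45 and BGLU44 had interactions of 1.00 ± 0.23 (adjusted p = 0.0206) and -0.84 ± 0.17 (adjusted p = 0.0115). BGLU45 no longer passed without siz1-3 dehydration replicate 2 (adjusted p 0.0565), nor with a pseudocount of 4 (0.065). BGLU27, BGLU45 and WSD1 had interactions of 1.05, 0.62 and -0.88 with a pseudocount of 64.

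Genes with a CYP symbol or synonym are mostly cytochrome P450 enzymes, but some, such as CYP71, CYP59 and SQN, are cyclophilins, which help proteins fold. Of the 28 measured, 4 were called, all negative, against 7.91% of all named genes called and 4.62% negative. The set was chosen after its counts were seen, and its median interaction was -0.07. Beside CYP84A4 the called genes were members of the P450 subfamily CYP71B, with different origins. CYP71B36 and CYP71B24 were raised in siz1-3 controls, at 121 ± 27.9 against 22.3 ± 5.30 and at 179 ± 19.6 against 53.7 ± 13.6 in Col-0, and had interactions of -1.40 ± 0.29 (adjusted p = 0.0115) and -1.02 ± 0.29 (adjusted p = 0.0449). CYP71B36 no longer passed with a pseudocount of 4 (0.203). CYP71B24 no longer passed without any 1 array other than siz1-3 dehydration replicate 2 and Col-0 control replicate 3 (adjusted p 0.0644 to 0.102), nor with a pseudocount of 4, after quantile normalization and with array medians subtracted (0.0786 to 0.161). CYP71B37, next to CYP71B36 on the chromosome, rose in Col-0 from 15.6 ± 4.25 to 63.7 ± 11.5 and was at 19.8 ± 0.756 in dehydrated siz1-3 (interaction -1.11 ± 0.26, adjusted p = 0.0235). CYP71B37 no longer passed without any 1 of siz1-3 dehydration replicates 2 and 3, Col-0 dehydration replicate 1 and Col-0 control replicates 1 and 3 (adjusted p 0.0509 to 0.0565), nor with a pseudocount of 4 (0.0697). LHW, a bHLH gene of vascular development, rose from 155 ± 22.6 to 343 ± 12.1 in Col-0 and fell from 154 ± 18.5 to 103 ± 14.7 in siz1-3 (interaction -1.60 ± 0.19, adjusted p = 0.000397). CYP71B37 had an interaction of -0.60 with a pseudocount of 64. CYP71B24 had an interaction of -1.59 with a floor of 32.

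Most of the extreme interactions belong to genes known here by locus code alone. After ORA47 the most positive were at the dehydrated level. AT4G38410 read 44.5, 39.6 and 18.7 in Col-0 controls and 426, 406 and 249 in dehydrated Col-0. The mutant read 20.8, 38.6 and 26.5 when unstressed and 3357, 3825 and 3853 when dehydrated. AT4G38410 started at overlapping levels and ended 10.04-fold higher in siz1-3 (interaction 3.48 ± 0.34, adjusted p = 0.000142). AT2G43580 read 18.2, 24.3 and 12.7 in Col-0 controls and 128, 106 and 132 in dehydrated Col-0. The mutant read 18.3, 14.7 and 9.98 when unstressed and 1065, 1257 and 1370.3 when dehydrated. Both genotypes rose from overlapping controls, and the dehydrated arrays were wide apart. AT1G76470 rose from 22 ± 6.61 to 115 ± 68.9 in Col-0 and from 19.4 ± 7.51 to 1339.7 ± 85 in siz1-3 (interaction 3.60 ± 0.40, adjusted p = 0.000264).

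Others of this class were AT4G22470, AT1G35200, AT2G36630, AT4G20320, AT2G21510 and AT1G12030, with interactions from 2.47 (AT1G12030) to 2.71 (AT4G22470). In each of them the mean of dehydrated siz1-3 was the highest of the 4 groups, for example 1664 ± 226 against 275 ± 60.9 in dehydrated Col-0 for AT2G36630 and 448 ± 35.1 against 93.3 ± 21.8 for AT4G22470. AT2G41730 had an interaction of 2.64 ± 0.28 (adjusted p = 0.000202), from a probe set of a kind that can bind related transcripts, and went from 169 ± 33.5 to 58.5 ± 22.1 in Col-0 and from 411 ± 60.2 to 1033 ± 5.72 in siz1-3. AT1G35200 had an interaction of 1.40 with a pseudocount of 64.

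AT5G38130 had the most negative interaction of the named genes on the scale used, though not with a pseudocount of 4, where AT1G51920 (-4.76) was lower, nor without Col-0 control replicate 2 or 3. It read 20.1, 17 and 8.14 in Col-0 controls and 584, 598 and 555 in dehydrated Col-0. The mutant read 11.2, 12.5 and 20.1 when unstressed and 37.9, 30.7 and 31.5 when dehydrated. Only the dehydrated Col-0 arrays were bright, and the interaction was -3.58 ± 0.23 (adjusted p = 9.83e-06). It lies next to 4CL8, which had an interaction of the same sign. AT4G14090 read 5.15, 89.9 and 31.4 in Col-0 controls, 158, 143 and 219 in dehydrated Col-0, 59, 48.4 and 40.5 in siz1-3 controls and 12.1, 22.2 and 4.33 in dehydrated siz1-3, an uneven set of controls with an interaction of -3.19 ± 0.62 (adjusted p = 0.00812). AT5G59760 rose in Col-0 from 13.9 ± 6.95 to 287 ± 35.9 and stood at 39.1 ± 5.42 in dehydrated siz1-3 (interaction -2.45 ± 0.27, adjusted p = 0.000292). AT5G43745 rose from 102 ± 7.57 to 578 ± 55.8 in Col-0 and was at 82.9 ± 11.2 and 83.5 ± 0.372 in siz1-3 (interaction -2.31 ± 0.17, adjusted p = 2.42e-05). AT3G28270 had an interaction of -2.41 ± 0.45 (adjusted p = 0.0065). AT3G28270 no longer passed with a pseudocount of 4 (0.0526). AT4G10270 rose in Col-0 and fell in siz1-3 (interaction -2.17 ± 0.34, adjusted p = 0.00208), with genotype differences of 0.95 ± 0.24 and -1.23 ± 0.24. AT4G10270 and AT4G14090 had interactions of -1.34 and -1.79 with a pseudocount of 64.

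**Figure D5:**
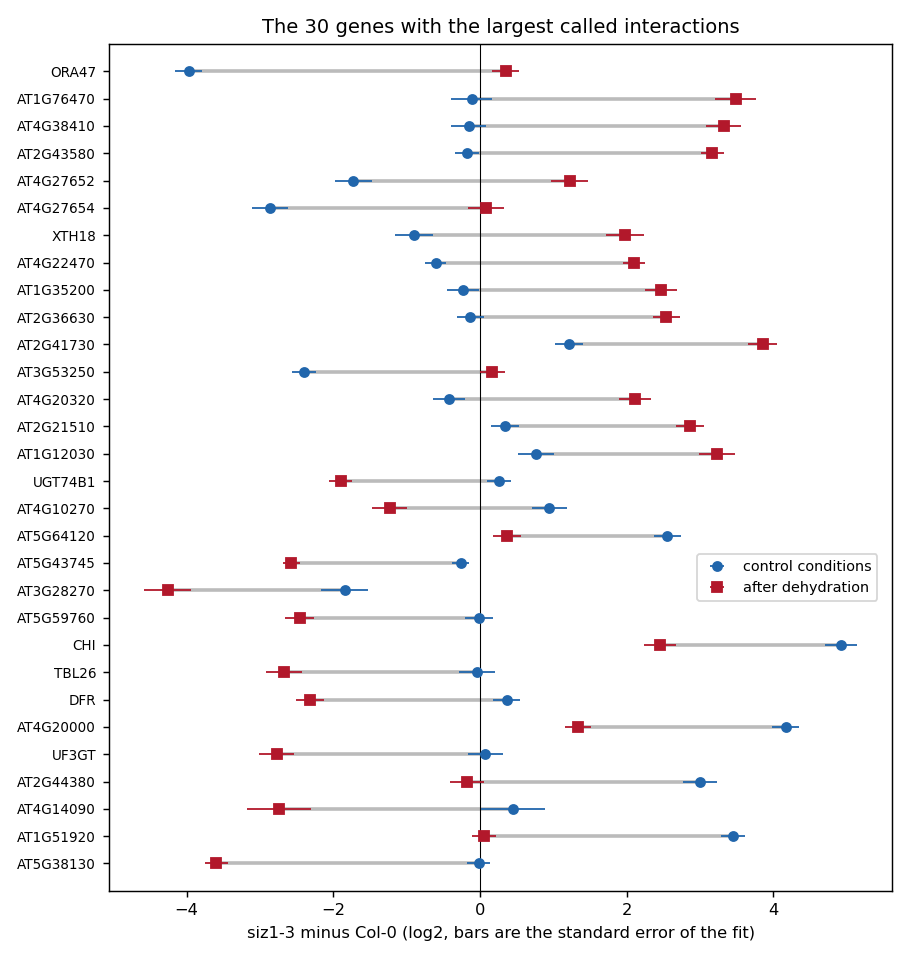
Genotype difference (siz1-3 minus Col-0, log2, horizontal axis) under control conditions (blue circles) and after dehydration (red squares) for the 15 most positive and 15 most negative called interactions, ordered by size, with the standard error of the fit as bars and the interaction as the grey line between them. ORA47 has a control value of -3.97 and a dehydrated value of 0.35, whereas AT4G38410 has values of -0.15 and 3.33.

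Of 7 measured markers of other tissues none was called by limma, where 7.91% of all named genes were, and the number measured is too small to set this apart from that share. An unadjusted p under 0.05 was found for 2 of them. The 3 measured root markers, out of 17 listed, did not pass (EXPA7, EXPA18 and PYK10, with adjusted p-values of 0.891, 0.742 and 0.201). Nor did the 3 guard cell genes SPCH, MUTE and FMA (0.353, 0.104 and 0.772) or the anther gene AMS (0.935). EXPA7, EXPA18, MUTE and AMS had means under 32 in every group, so a change in these dim genes could be missed. PYK10 stood at 926 ± 33.4, 964 ± 219.8, 662 ± 53.5 and 477 ± 20.3 in the order of the groups above, and it passed without Col-0 dehydration replicate 1 (0.0257). MUTE passed without siz1-3 dehydration replicate 1 (0.0415). Members without a call from lists with at most 2 measured genes were GI of the clock (interaction 0.01 ± 0.23), EIN3 of ethylene signalling (-0.06 ± 0.18), the zinc finger gene STZ (0.41 ± 0.29), the histone gene HTB1 (-0.63 ± 0.19) and PS2 (0.31 ± 0.16). WRKY6 and UGT73B5, which were higher in siz1-3 in both conditions, had interactions of -0.11 ± 0.19 and 0.44 ± 0.39, and GSTU25 and BRL1, the latter listed with BIM1, ones of 0.20 ± 0.25 and 0.34 ± 0.28. Adjusted p-values of these ran from 0.0576 for HTB1 to 0.983 for GI, and HTB1 passed under 4 of 20 alternatives.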

How the data were processed

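Total RNA was labelled with biotin and hybridised to ATH1 arrays, per the labels' protocols. Values came from the series' deposited table, with 1 column per sample matched by its label and 0 columns left unused. Per the labels and the values, the deposited numbers are an intensity per probe set on a linear scale with a common trimmed mean of 250.02. The sources used here do not name the summarising software, and without detection calls a dim signal cannot be told from background.

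Of 22810 probe sets, 64 controls were left out. Log2 of intensity plus a pseudocount of 16 was fitted with 1 mean per group over all 12 arrays (limma 3.58.1, lmFit and eBayes, R 4.3.3; 8 residual and 4.141 prior degrees of freedom), so fold changes of dim genes are understated. The contrasts were the interaction, its component differences and the 2 means orthogonal to it. The number of arrays limits the precision. Gene names came from the platform annotation, updated through the TAIR10.1 gene table: 13513 probe sets pair with 1 gene, of which 13436 matched, and 11933 of them have a locus code only. Genes with several probe sets are named by the brightest.

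Named are the 15 most positive and 15 most negative called genes, the 6 largest of each class of sign and origin, SIZ1, and up to 4 members by size of each list described (all for lists of up to 5). The 15 largest of each sign that carry a symbol, 8 symbol families and single genes were added after values were seen. WRKY, with the largest share called of the 63 families (42.9%), is not among the 8, nor are GLR and SBT (37.5% each). The 26 lists (617 members, 75 measured) and all other choices were made with earlier results of these data known. The fit was tested on simulated data. A description of promoter motifs was not run, because no promoter sequences were used here.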

Additional observations from a re-analysis of the deposited data

Results flagged for a closer look

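Each gene below had a dehydration response that differed between siz1-3 and Col-0 by the test of that difference itself, the interaction in the limma fit, at an adjusted p under 0.05. Values are log2 interactions, siz1-3 response minus Col-0 response. No explanation was tested. With 3 arrays in each group, single arrays were not examined as outliers.

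Among dehydration, cold and osmolyte genes the interaction was 1.69 for COR47, 1.27 for LTI30, 1.09 for COR15A, 1.54 for LEA27 and -1.20 for LKR. Flavonoid and other glycosyltransferase genes gave -2.68 for DFR, -2.85 for UF3GT, -1.64 for UGT78D1, -1.68 for UGT78D2, -2.16 for UGT74B1, -1.74 for UGT87A2, 2.35 for UGT76B1, 1.80 for UGT73C7 and 1.71 for UGT73D1. Defence and calcium genes gave 0.79 for SAG101, 0.95 for WRKY53, 1.51 for CML41, 1.74 for CML38, 1.61 for CML23, -2.47 for CHI, -2.19 for PRX71 and -1.54 for YLS5. For phenolic and P450 genes it was -1.48 for 4CL8, -1.76 for CYP84A4, -1.40 for CYP71B36, -1.11 for CYP71B37 and -1.02 for CYP71B24.

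For transcription factor, ubiquitin, SUMO and autophagy genes the values were 4.33 for ORA47, 1.29 for BIM1, -1.60 for LHW, 0.80 for DEWAX, 1.96 for PUB22, -1.54 for LUL1, -0.83 for SIZ1, 1.15 for ATG8H, 0.87 for ATG8E, 0.67 for ATG8B and 0.95 for ATG101. Hormone and growth genes gave 1.59 for WES1, 1.31 for IAGLU, 0.84 for IAA30 and 1.61 for ARL. Wall and cuticle genes gave 2.87 for XTH18, 2.20 for XTH19, 0.70 for EXGT-A3, -0.94 for XTH16, -1.37 for EXPA4, -1.06 for EXPA16, -0.91 for EXPB3, 1.62 for EXLA1, 1.08 for EXLA2, -1.21 for PMEPCRF, -2.62 for TBL26, -1.85 for CSLA01, 1.62 for SBT3.5 and -1.58 for WSD1. Sugar transporter and beta-glucosidase genes gave 1.26 for SWEET4, -1.39 for SWEET1, -1.12 for SWEET11, -1.27 for SWEET17, 1.95 for BGLU27, -1.28 for BGLU31, -0.84 for BGLU44 and 1.00 for BGLU45, and chloroplast genes -0.96 for NdhN, -1.02 for CRR42, -1.19 for TAAC and 1.90 for NANA.

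Locus-code genes with positive values gave 3.60 for AT1G76470, 3.48 for AT4G38410, 3.35 for AT2G43580, 2.95 for AT4G27652, 2.95 for AT4G27654, 2.71 for AT4G22470, 2.70 for AT1G35200, 2.67 for AT2G36630, 2.64 for AT2G41730, 2.57 for AT3G53250, 2.54 for AT4G20320, 2.52 for AT2G21510, 2.47 for AT1G12030, 2.13 for AT1G51090, 2.02 for AT1G73480 and 2.01 for AT1G78070. Those with negative values gave -1.89 for AT1G52770, -2.17 for AT4G10270, -2.31 for AT5G43745, -2.41 for AT3G28270, -2.45 for AT5G59760, -2.83 for AT4G20000, -3.18 for AT2G44380, -3.19 for AT4G14090, -3.40 for AT1G51920 and -3.58 for AT5G38130.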

How the results depend on the processing

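All 9 counts of called, higher, lower and ordered probe sets stayed within 1.5 times their value under the other pseudocount, floor, filter, trend, block and scaling settings, with 2 exceptions. With a pseudocount of 64 the number of probe sets whose genotype difference was larger under control conditions was 556, and after subtraction of array medians the number with a negative interaction was 637; the cause was not tested. The number called ran from 1503 with a pseudocount of 4 to 2875 with a pseudocount of 64. With an array left out, 1270 to 1885 probe sets were called, 594 to 884 positive and 670 to 1001 negative. The genotype difference was then larger after dehydration at 655 to 1023, larger under control conditions at 236 to 322 and unordered at 355 to 549. The response was larger in siz1-3 at 719 to 1066, larger in Col-0 at 353 to 521 and unordered at 185 to 304. The lowest of these came without siz1-3 dehydration replicate 2 or 3. Of the 94 named genes that were called, 82 kept the call with a pseudocount of 4, 89 after quantile normalization, 90 after subtraction of array medians and 91 with a floor of 32, and 0 changed sign.

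Same-numbered arrays of different groups shared little of their deviation from the group means: of 18 correlations between them 1 was over 0.1, and they averaged 0.0154. Such correlations cannot show whether the samples were collected in pairs. With the replicate number as a block 1783 probe sets were called, 1669 of them also without it, and 90 of the 94 named genes kept their call; SIZ1 (adjusted p = 0.057), WRKY53 (0.0576), EXPB3 (0.0514) and XTH16 (0.0511) did not. Dim genes are limited by background: 95 called probe sets had every group mean under 32.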

Other observations

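On the linear signal 87 of the 2003 called probe sets (4.34%) had a difference of responses with the opposite sign to the log2 interaction, 34 of those positive and 53 of those negative on the log2 scale. CHI, UGT87A2, COR15A, SWEET4, WRKY53 and CRR42 were among them.

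Several named genes lie next to each other in the TAIR10.1 gene order. AT4G27652 and AT4G27654 had interactions of 2.95 and 2.95, XTH18 and XTH19 of 2.87 and 2.20, UGT73D1 and UGT73C7 of 1.71 and 1.80, CYP71B36 and CYP71B37 of -1.40 and -1.11, and 4CL8 and AT5G38130 of -1.48 and -3.58. CHI and AT2G43580 are also neighbours, with interactions of -2.47 and 3.35. COR15B and COR15A had values of -0.28 and 1.09. How often neighbouring genes share a sign over the genome was not tested.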
